A study of Rattus norvegicus with 138 samples.

Results

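The tibialis anterior (TA), the muscle at the front of the lower leg that lifts the foot, was compared in running rats between the side with volumetric muscle loss (VML) and the uninjured opposite side, 7 days post injury (DPI). Muscles were taken by their labels: the injured side held muscles labelled VML, Run, day 7 and either NoRepair or MMG, and the contralateral side held muscles labelled NoVML with the same other labels. Of the 17 libraries with those labels, 5 had fewer than 7000 gene symbols above 1 TPM (a share of a library's transcripts, corrected for transcript length and scaled to the same total in every library) and were dropped. The remaining 12 libraries came from 12 muscles of 8 rats. They were 8 of the 80 injured and 4 of the 39 contralateral muscles of the whole series. Both muscles were held for 4 rats (003 and 004 without repair, 007 and 008 with a graft), and the injured muscle alone for the other 4 (031 and 032 without repair, 027 and 028 with a graft).

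All rats were inbred male Lewis rats of about 4 months of age. A 6 mm biopsy punch had removed a full-thickness piece from the middle of 1 TA muscle. In NoRepair rats the gap was not filled, and in MMG rats it was filled with an autologous minced muscle graft, the animal's own excised tissue cut into small pieces. The contralateral muscles came from operated rats and therefore shared surgery, anaesthesia and running with the injured ones. How and how long the rats ran is not described in the sources used here, and the contralateral muscle is not an unoperated control.

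Adult muscle fibres repair themselves through satellite cells, stem cells that lie between the fibre and its sheath, divide after injury, switch on myogenic factors in sequence and fuse into new fibres. New fibres pass through a stage with embryonic and neonatal sarcomere proteins before they make the adult fast or slow forms, and they carry acetylcholine receptors outside the synapse until a nerve contacts them. Neutrophils and then macrophages clear the debris, while fibro-adipogenic progenitors and fibroblasts lay down a provisional matrix.

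Contralateral muscles had the make-up of fast muscle. Transcripts of 20 adult fast sarcomere genes held 33.1% to 35.5% of the TPM of the symbols analysed, which run alphabetically up to Tubb3, on that side, with a median of 33.7%, and 7.47% to 16.9% in the injured muscles, with a median of 14.8%. The 100 most abundant of these symbols held 56.1% to 59.6% of that TPM in contralateral and 37.1% to 44.5% in injured muscles. TPM sums to the same total in every library, so a smaller share of sarcomere transcripts leaves a larger share to the sum of the other transcripts. How far this shifted the differences of single genes was not tested. The number of symbols above 1 TPM was 10774.9 ± 109.9 (SD, n = 8) in injured and 9318.2 ± 303.5 (SD, n = 4) in contralateral muscle with ranges of 10628 to 10948 and 9019 to 9724. The same number had decided which libraries were dropped, so it is given without a test. Ribosomal RNA took 0.098% to 0.824% of the same sum in the 12 libraries. Depth cannot be read from TPM, so no counting error is attached to any value.

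Of 11025 genes tested with limma on log2(TPM + 1), 4953 (44.9%) were called, at an adjusted p under 0.05 and a log2 difference beyond 1. Of these, 4535 (41.1% of the tested genes) were higher and 418 (3.79% of the tested genes) lower in injured muscle. The median difference of all tested genes was 0.81, or 0.53 over 14311 genes without the filter on low values, and differences below are set against the former. After the libraries were rescaled by median-of-ratios size factors the median was -0.01, and 2132 of 10943 genes were called higher (19.5%) and 1695 lower (15.5%), so the share of higher calls went from 91.6% to 55.7%. Injured and contralateral muscles did not overlap for 8021 of the tested genes (72.8%), called or not. Among genes called higher, 4517 were higher in the injured muscle of all 4 rats with both muscles, and among genes called lower, 412 were lower in all 4. The same muscles had made the calls, so these counts are not independent of them. With the rat as a random block, the paired fit called 4785 genes, 4412 higher and 373 lower. Lists of genes below are described by counts and medians to be set against these shares.

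**Figure D1:**
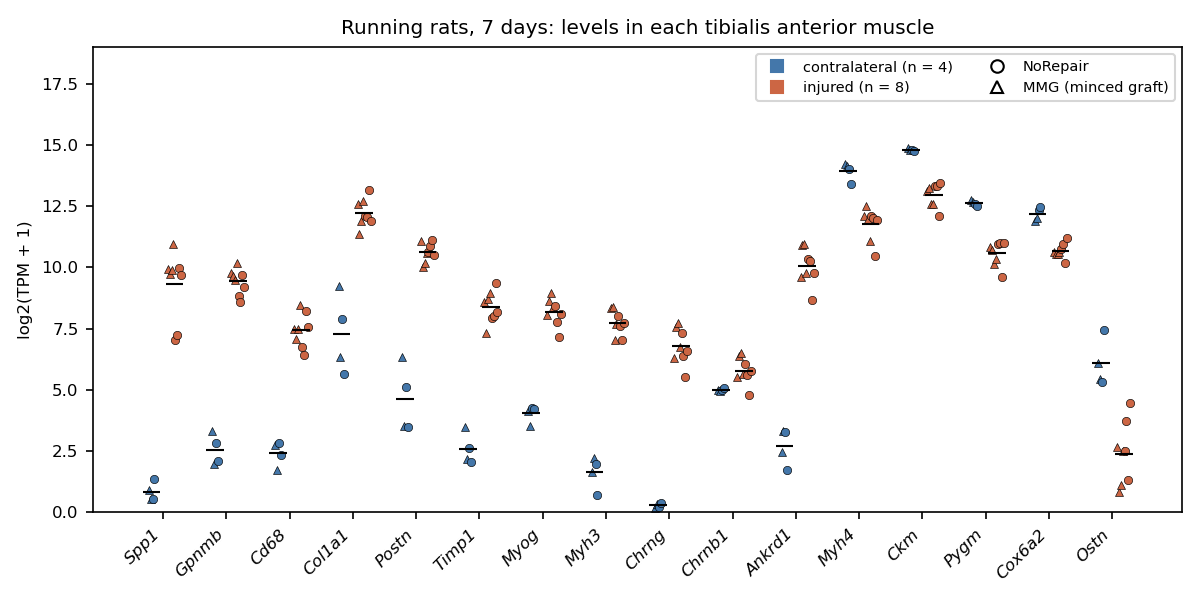
Level of 16 genes, as log2(TPM + 1), in each TA muscle of running rats at 7 DPI, with 1 point per muscle, blue for contralateral (n = 4), orange for injured (n = 8), circles for NoRepair, triangles for MMG and bars for the mean. The sides are apart for Spp1, Gpnmb, Cd68, Col1a1, Postn, Timp1, Myog, Myh3, Chrng, Ankrd1, Myh4, Ckm, Pygm, Cox6a2 and Ostn, and they overlap for Chrnb1.

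Transcripts of phagocytes rose on the injured side. All 17 tested macrophage and monocyte markers were called higher, with a median difference of 3.09, and all 17 stayed called with size factors. Cd68, a glycoprotein of macrophage lysosomes, was 85.7, 179 and 347 TPM in the lowest, median and highest injured muscle and 6.09, 4.07, 5.76 and 2.33 TPM in the contralateral muscles of rats 003, 004, 007 and 008, in that order, as for all contralateral values below. The lowest injured muscle lay above the highest contralateral one (log2 difference 5.0, SE 0.353, adjusted p = 8.6e-08). Whether more macrophages or more RNA per macrophage gave this cannot be told apart in whole muscle, and the same holds for every cell type named below. Lyz2, the lysozyme of phagocytes, rose by 5.0, Csf1r, the receptor that keeps macrophages alive, by 3.07, and Cd163, the scavenger receptor for haemoglobin, by 2.16. The summed level of the markers was 2281 to 5467 TPM in injured and 117.7 to 322.9 TPM in contralateral muscle.

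Genes by which phagocytes take up and digest debris and lipid stood among the largest differences of all. Spp1, which encodes the secreted phosphoprotein osteopontin, had the largest difference by the naming rule, which takes called genes whose sides did not overlap and leaves out provisional and microRNA symbols. Its level was 128.3, 897 and 1955 TPM (lowest, median, highest) in injured and 0.44, 1.58, 0.85 and 0.45 TPM in contralateral muscle. Every injured muscle was above every contralateral one, and the injured muscles themselves varied widely (log2 difference 8.47, SE 0.588, adjusted p = 7.91e-08). Gpnmb, a membrane glycoprotein of lipid-laden macrophages, was 377, 757 and 1157 TPM against 6.03, 3.23, 8.92 and 2.89 TPM (log2 difference 6.88, SE 0.273, adjusted p = 3.05e-09). Mmp12, the macrophage elastase, was 24.8, 93.6 and 275 TPM in injured muscle, and the contralateral muscle of rat 003 was listed at 0 and the other 3 at 0.02 TPM (log2 difference 6.46, SE 0.552, adjusted p = 3.21e-07). Of the 18 genes on this list 16 were called higher, with a median of 3.46, among them Trem2, a lipid receptor (5.44), Apoe, which carries lipid out of macrophages (5.19), and Ctsk, a lysosomal protease (4.69). Cd36, a fatty acid transporter shared by muscle fibres and phagocytes, was not called (-0.42, adjusted p = 0.00502), and its sides overlapped. With size factors it was called lower (-1.38, adjusted p = 1.78e-06), and 14 of the list were higher and 1 lower.

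Antigen presentation and inflammatory signals were higher as well. All 10 genes of MHC class II presentation were called higher, with a median of 2.94, and all 10 stayed called with size factors. Cd74, the chaperone that occupies the class II groove, was 645, 798 and 1495 TPM in injured and 119, 95.3, 125.03 and 69 TPM in contralateral muscle (log2 difference 3.05, SE 0.215, adjusted p = 8.71e-08). RT1-Da, a class II chain of a gene family whose near-identical members may share reads, rose by 3.26. Of 25 chemokines tested 21 rose and none fell, including the monocyte attractants Ccl2 (4.42) and Ccl7 (4.84) and the B cell attractant Cxcl13 (4.28). Of 19 cytokines and related genes 16 rose, including Il1b (2.06) and its receptor antagonist Il1rn (3.76). Of 22 interferon response genes 18 rose, with a median of 1.52 and Irf7, the regulator of interferon genes, at 2.08, but 8 were called higher with size factors.

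Of 25 complement genes 19 rose and 1 fell. C1qa, a chain of the molecule that starts the classical pathway, rose by 3.34 and C4a, the next protease substrate of that pathway, by 2.82. Masp1, a protease of the lectin pathway, fell from 21.8, 22.6, 26.4 and 26.1 TPM in contralateral muscle to 3.89, 7.52 and 11.7 TPM in injured muscle (log2 difference -1.55, SE 0.206, adjusted p = 1.38e-05), with no overlap. Of 17 genes of iron and heme handling and metallothioneins, which bind zinc and copper, 15 rose, led by the metallothionein Mt1 (5.75) and Hmox1, the heme-degrading enzyme (5.53), and Tfrc, the receptor that brings iron into cells, fell (-1.15), but not past the threshold without the contralateral muscle of rat 008 (-0.91), in the rats with both muscles alone (-0.89) or in NoRepair rats alone (-0.60). With size factors 8 of the 17 rose and 1 fell, with a median of 0.78.

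T and natural killer cell transcripts were higher at low levels. Of 16 T and natural killer cell markers 13 rose, with a median of 1.89. Cd8a, which marks cytotoxic T cells and, in rats, some macrophages, was 10.8, 16.6 and 27.2 TPM in injured and 0.67, 0.53, 0.55 and 0.12 TPM in contralateral muscle (log2 difference 3.68, SE 0.222, adjusted p = 3.4e-08), whereas Cd3e, a chain of the T cell receptor complex, reached 2.6, 3.63 and 6.67 TPM (log2 difference 1.74). Of 5 B and plasma cell markers and 5 mast cell and eosinophil markers tested, 2 each rose, a share close to the 41.1% of all genes called higher, and with size factors 1 and 0 rose. Without the contralateral muscle of rat 004, 1 of the mast cell and eosinophil markers rose. Neutrophil markers were mostly too low to test, since 6 of 14 passed the filter, and 3 of these rose, or 5 without the contralateral muscle of rat 007 or the injured muscle of rat 003. S100a8, an abundant neutrophil protein, was not called (0.96, adjusted p = 0.0343), and its muscles overlapped (8.15, 15.7 and 43.7 TPM against 7.38, 14.4, 12.3 and 2.6 TPM). It was called higher without the contralateral muscle of rat 004 (1.10) or 007 (1.32) or the injured muscle of rat 003 (1.09) or 007 (1.04), without the contralateral muscles of both rat 003 and rat 007 (1.21) and with a pseudocount of 0.1 TPM (1.06). Red cell transcripts varied widely within both sides, with a summed level of 2785 to 44800 TPM in injured and 1855 to 30210 TPM in contralateral muscle. None of the 8 red cell genes was called, and Hbb, a haemoglobin chain with near-identical copies, differed by -0.51 (adjusted p = 0.44). With size factors 5 of the 8 were called lower, with a median of -1.38, and Hbb was one of them (-1.48, adjusted p = 0.0433).

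**Figure D2:**
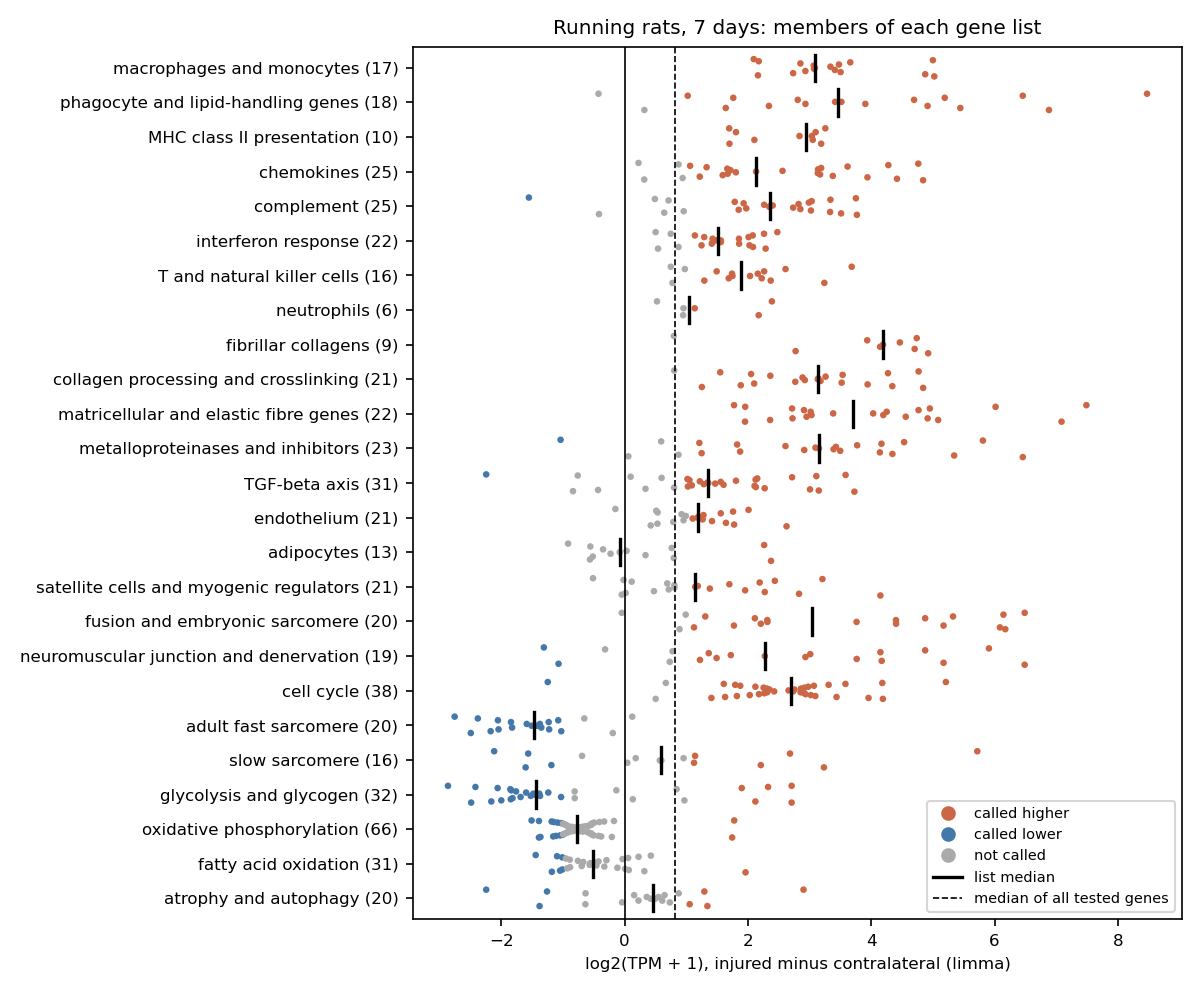
Difference between injured and contralateral muscle of running rats at 7 DPI, on the log2(TPM + 1) scale, for the tested members of 25 gene lists (number tested in brackets), with 1 point per gene coloured by its call, a bar for the list median and a dashed line at 0.81, the median of all tested genes. The slow sarcomere median (0.58) and the atrophy and autophagy median (0.46) lie above 0 here but fell below it with size factors (-0.38 and -0.40), and the medians of the adult fast sarcomere, glycolysis, oxidative phosphorylation and fatty acid oxidation lists lie below 0 under both scalings.

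The matrix genes rose together and to high levels. Of 9 fibrillar collagens tested 8 were called higher, with a median of 4.19, and 8 with size factors. Col1a1, the main chain of type I collagen, was 2618, 4289 and 9032 TPM in injured muscle and 239, 49.5, 597 and 80.8 TPM in contralateral muscle. The sides did not overlap, but the contralateral muscles of rats 007 and 003 were above those of the other two (log2 difference 4.92, SE 0.553, adjusted p = 3.17e-06). Col3a1, of loose early scar, rose by 4.46, Col5a1, which starts fibrils, by 4.74 and Col11a1, a minor fibrillar chain, by 4.14. Of 21 genes that process and cross-link collagen 20 rose, with a median of 3.13, such as the lysyl oxidases Lox (4.34) and Loxl1 (4.84) and the collagen chaperone Serpinh1 (3.52). Of 10 basement membrane genes 9 rose, with a median of 2.36.

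Matricellular proteins, which bind to the matrix and to cells without bearing load, and elastic fibre genes were all called higher, 22 of 22 with a median of 3.71 and 21 with size factors. Postn, periostin, was 1038, 1558 and 2195 TPM in injured and 33.2, 10.2, 79.4 and 10.4 TPM in contralateral muscle (log2 difference 6.02, SE 0.46, adjusted p = 1.44e-07). Cthrc1, a secreted glycoprotein of collagen-making fibroblasts, was 207, 353 and 618 TPM against 1.17, 0.75, 1.73 and 0.61 TPM, the second largest difference by the naming rule (7.49, SE 0.247, adjusted p = 1.75e-09). The tenascins Tnc and Tnn, the latter on no list, rose by 7.08 and 7.28, and Thbs4, a thrombospondin of tendon and muscle junctions, rose by 4.56. In each of these genes the lowest injured muscle was above the highest contralateral one.

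Of 15 proteoglycans 14 were called higher, but 7 with size factors. Lum (5.89) and Bgn (5.37), small proteoglycans that bind collagen fibrils, kept their call under both scalings, whereas Dcn, decorin, did not (1.74, and 0.77 with size factors). Fmod (2.81) and Kera (2.32, adjusted p = 0.0456) were called with overlapping sides, since the contralateral muscle of rat 007 held 75.2 TPM of Fmod and 89.8 TPM of Kera. Both lost their call with size factors (1.98 and 1.55) and without the contralateral muscle of rat 004 (1.79 and 1.19). They also lost it in the rats with both muscles alone (2.58 and 2.01) and in grafted rats alone (1.46 and 0.76), and Kera without the filter on low values and when most of the other muscles were left out singly.

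Tendon genes showed the same uneven contralateral side, in part through the same genes. The list holds Fmod, Kera, Thbs4 and Tnc, which are named above, so its counts and sum partly repeat them. Of 9 tested 8 were called higher, and 5 with size factors, and sides did not overlap for 4 of the 9. Their summed level was 110.1, 27.51, 300.6 and 52.9 TPM in the contralateral muscles and 566.8 to 1414 TPM in injured muscles. Tnmd, tenomodulin, a membrane protein of tendon cells, was 12.9, 73 and 171 TPM in injured and 8.41, 0.07, 34.4 and 1.69 TPM in contralateral muscle (log2 difference 3.67, SE 0.845, adjusted p = 0.0013). The contralateral muscle of rat 007 lay within the injured range, and in grafted rats alone Tnmd was not called (2.26, adjusted p = 0.0967 by limma). Scx, the transcription factor of tendon cells, did not overlap (67, 97.8 and 150 TPM against 31.5, 20.3, 31.9 and 24.5 TPM; 1.93), but was not called with size factors (0.98). The summed fibrillar collagens were 733.5, 243, 1765 and 352 TPM in the contralateral muscles and 9200 to 24550 TPM in injured ones. Without the contralateral muscles of rats 003 and 007, a setting chosen after the levels were seen, 9 of 9 fibrillar collagens, 22 of 22 matricellular and elastic fibre genes and 8 of 9 tendon genes were called higher, and 5327 genes in all.

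Of 23 metalloproteinases and their inhibitors 19 rose and 1 fell. Mmp2 (4.14), a gelatinase, and Mmp14 (5.34), the membrane enzyme that activates it, reached 624 and 455 TPM in the median injured muscle. Mmp13, a collagenase, was 3.98, 11.4 and 46.4 TPM in injured muscle, and was listed at 0 in 3 contralateral muscles and at 0.3 TPM in that of rat 003 (3.77). Timp1, an inhibitor of these enzymes, was 160, 337 and 653 TPM in injured muscle and 5.1, 3.08, 10 and 3.48 TPM in contralateral muscle (log2 difference 5.81, SE 0.358, adjusted p = 3.81e-08). Timp4, an inhibitor found mainly in muscle and heart, fell by 1.04 on the log2 scale, and its value was short of the threshold without the contralateral muscle of rat 007 (-0.97) or the injured muscle of rat 008 (-0.98), with the libraries of few symbols kept (-0.89), in NoRepair rats alone (-0.91) and without the contralateral muscles of rats 003 and 007 (-0.97).

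Of 31 genes of the TGF-beta axis, the growth factors that drive scarring and restrain muscle growth, 23 rose and 1 fell, and 12 rose and 4 fell with size factors. Tgfb1, the best known fibrogenic ligand, was 55.8, 71.7 and 113 TPM in injured and 5.79, 3.48, 9.02 and 4.88 TPM in contralateral muscle (log2 difference 3.58, SE 0.217, adjusted p = 3.45e-08). Mstn, myostatin, the family member by which muscle fibres limit their own growth, moved the other way. It was 1.98, 3.38 and 6.53 TPM in injured and 18.1, 19.5, 25.4 and 17.1 TPM in contralateral muscle (log2 difference -2.24, SE 0.222, adjusted p = 1.07e-06). Fst, follistatin, a secreted protein that binds myostatin, rose by 2.15, and Snai1, a transcription factor induced by this pathway, by 3.11.

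Other cell types of the tissue moved less evenly. Of 15 fibro-adipogenic and fibroblast markers 11 rose, with a median of 1.93. Of 21 endothelial markers 12 rose with a median of 1.19, but 2 rose and 1 fell with size factors, and Pecam1, an endothelial adhesion protein, was among those not called then (1.64 against 0.70). Of 16 smooth muscle and pericyte markers 10 rose and 1 fell, and 5 rose and 2 fell with size factors. Of 13 adipocyte markers 2 rose, with a median of -0.08, and Adipoq, the adipocyte hormone adiponectin, was not called (-0.91, adjusted p = 0.212) at 5.1, 2.49, 23.4 and 1.07 TPM in contralateral muscle. With the rat as a block Adipoq was lower (-1.20, adjusted p = 0.0488), and without the contralateral muscles of rats 003 and 007 its sign changed (0.18). With size factors 2 of the adipocyte markers rose and 3 fell, and Adipoq was called lower (-1.61, adjusted p = 0.0328). Of 13 Schwann cell and nerve markers 7 rose, or 4 rose and 1 fell with size factors. Erbb3, the neuregulin receptor of Schwann cells, rose by 2.76.

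**Figure D3:**
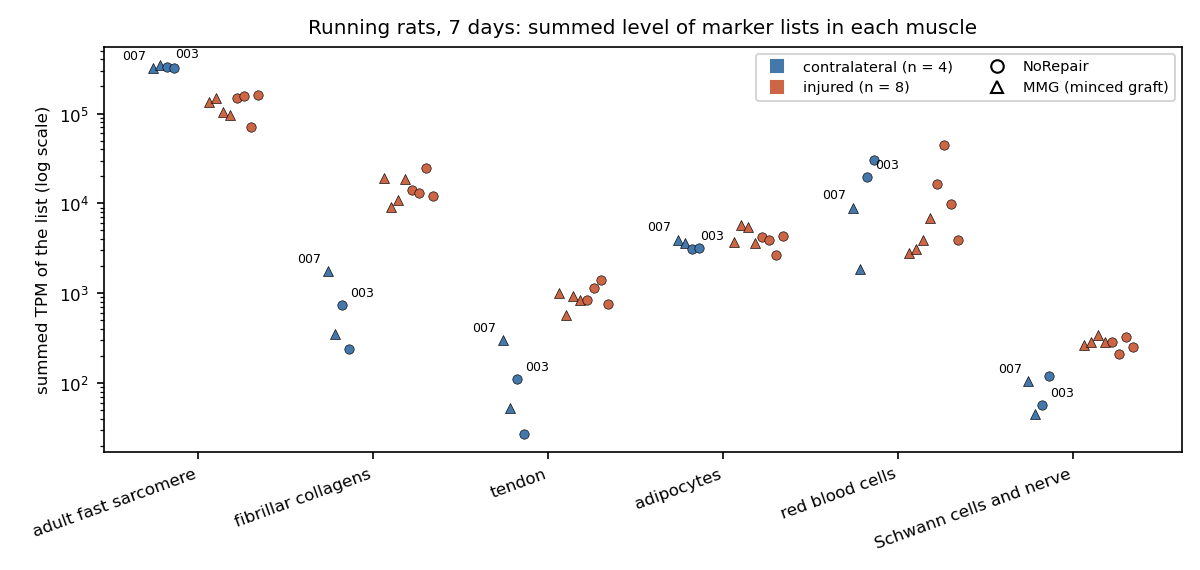
Summed TPM, on a log scale, of 6 marker lists in each muscle of running rats at 7 DPI, with 1 point per muscle, blue for contralateral, orange for injured, circles for NoRepair and triangles for MMG, and rats 003 and 007 marked on the contralateral side. The fibrillar collagen and tendon sums of the contralateral muscles are highest in rat 007 (1765 and 300.6 TPM) and then rat 003 (733.5 and 110.1 TPM), and below those of every injured muscle.

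Regulators of the myogenic sequence were unequal in their differences. Of 21 satellite cell and myogenic regulator genes 11 rose, with a median of 1.15, and with size factors 7 of 20 rose and 1 fell, with a median of 0.31. Pax7, which marks satellite cells, was at low levels and rose by 1.19 (1.68, 3.48 and 6.77 TPM against 0.73, 0.64, 1.44 and 1.03 TPM), but was not called with size factors (0.62). Myf5, of committed myoblasts, rose by 2.44. Myod1, which sets cells on the muscle path, was not called and changed sign between scalings (0.69, adjusted p = 0.067, and -0.25 with size factors), but was called higher in grafted rats alone (1.13). Myog, myogenin, which starts terminal differentiation, was 142.5, 303 and 489 TPM in injured and 18.2, 17.6, 16.6 and 10.4 TPM in contralateral muscle. All injured muscles were above all contralateral ones (log2 difference 4.15, SE 0.267, adjusted p = 4.91e-08).

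Of 20 genes of myoblast fusion and the embryonic sarcomere 17 rose, none fell, and the median was 3.04. The list also holds Chrna1, Chrng and Ncam1, which are counted again among the neuromuscular junction genes, and Tnni1 and Tnnc1, which are counted again among slow sarcomere genes. Without these 5, 12 of 15 rose, with a median of 2.32. Tmem8c, an older symbol of myomaker, the membrane protein that makes myoblasts fuse, shared the smallest adjusted p of the comparison. It was 69.3, 114 and 160 TPM in injured and 0.75, 0.31, 0.7 and 0.75 TPM in contralateral muscle (log2 difference 6.14, SE 0.167, adjusted p = 4.93e-10). Myh3, embryonic myosin heavy chain, was 128.4, 208 and 328 TPM against 2.88, 0.64, 2.13 and 3.67 TPM (log2 difference 6.09, SE 0.296, adjusted p = 9.67e-09). Neonatal myosin Myh8 rose by 5.33, cardiac troponin T Tnnt2, a form also made in young fibres, by 6.17, and the fetal actin Actc1 and fetal light chain Myl4 by 4.40 each. Igf2, a growth factor of differentiating myoblasts, rose by 2.32. Muscles of the sides did not overlap for any of these.

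Genes that respond to stretch and load in fibres were split. Of 18 tested, 9 rose, 1 fell and 8 were not called, with a median of 0.90, near that of all genes. With size factors 6 rose and 2 fell, with a median of 0.07. Ankrd1, an ankyrin repeat protein bound to the sarcomeric spring, was 406, 1052 and 1990 TPM in injured and 8.58, 2.32, 4.5 and 8.81 TPM in contralateral muscle, the third largest difference by the naming rule (7.35, SE 0.393, adjusted p = 1.73e-08). Sln, sarcolipin, an inhibitor of the calcium pump, rose by 5.72 to a median of 3846 TPM, Mustn1, a small nuclear protein of regenerating muscle, by 3.99, and Csrp3, a stretch sensor at the Z-disc, by 2.68. Of 29 genes that activity is known to induce 19 rose and 4 fell, or 11 and 6 with size factors. Ostn, osteocrin, a hormone of muscle fibres on that list, had the lowest difference by the naming rule. It was 0.75, 4.58 and 20.8 TPM in injured and 39.3, 172, 67.8 and 42.6 TPM in contralateral muscle, with no overlap (log2 difference -3.70, SE 0.588, adjusted p = 6.77e-05). Klk1, tissue kallikrein, which is on no list, rose by 6.49 from 2.22, 2.28, 1.9 and 3.16 TPM to 185, 308 and 413 TPM.

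The acetylcholine receptor of muscle is a ring of subunits. The fetal form holds the gamma subunit, the adult form holds epsilon in its place, and alpha, beta and delta are common to both. The promoters are shown because 4 of the 5 subunit genes rose and because myogenic factors such as myogenin bind E-boxes. One E-box, CAGCTG, is the same on both strands and is in capitals below. Other E-box sequences were not searched for, so a window without capitals may still hold one. The 120 bases before each start are from the RefSeq promoter table, on the gene's own strand and the GRCr8 build, which is not the build the authors used.

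Chrna1 (alpha), chr3:78877354-78877473, minus strand: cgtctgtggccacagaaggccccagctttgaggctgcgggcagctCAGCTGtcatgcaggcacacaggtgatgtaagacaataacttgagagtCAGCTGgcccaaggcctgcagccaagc
Chrng (gamma), chr9:95325864-95325983, plus strand: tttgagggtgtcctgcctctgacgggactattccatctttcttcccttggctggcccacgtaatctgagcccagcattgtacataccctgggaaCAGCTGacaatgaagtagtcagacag
Chrnd (delta), chr9:95310196-95310315, plus strand: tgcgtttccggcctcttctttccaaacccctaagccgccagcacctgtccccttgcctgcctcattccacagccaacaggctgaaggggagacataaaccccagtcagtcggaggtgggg
Chrne (epsilon), chr10:55834155-55834274, minus strand: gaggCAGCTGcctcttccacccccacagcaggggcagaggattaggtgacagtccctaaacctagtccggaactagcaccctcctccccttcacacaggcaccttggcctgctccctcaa
Chrnb1 (beta), chr10:55015108-55015227, minus strand: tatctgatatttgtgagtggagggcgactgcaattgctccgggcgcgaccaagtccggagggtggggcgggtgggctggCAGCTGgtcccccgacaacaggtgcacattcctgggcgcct

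The motif occurs 2 times in the Chrna1 window, once each in those of Chrng, Chrne and Chrnb1, and not in that of Chrnd. In the 250 bases before the start it is present in 3274 of 27457 promoters of the table (11.9%), in 12.9% of the 8249 matched promoters of tested genes, in 436 of 3378 of genes called higher (12.9%) and in 61 of 316 of genes called lower (19.3%). Among the lists, 6 of 14 matched promoters of neuromuscular junction genes, 5 of 13 of fusion and embryonic sarcomere genes and 5 of 17 of adult fast sarcomere genes hold it. The first and second of these lists share Chrna1, Chrng and Ncam1, and the shares are a description of letters in a window.

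Of the 5 genes, Chrng had the largest difference and Chrnb1 the smallest. Chrng was 45.2, 100.95 and 210 TPM (lowest, median, highest) in injured muscle and 0.15, 0.31, 0.14 and 0.27 TPM in contralateral muscle, with every injured muscle far above (log2 difference 6.49, SE 0.325, adjusted p = 1.27e-08). Chrnd was 114, 293 and 667 TPM against 3.57, 5.0, 4.26 and 4.34 TPM (log2 difference 5.91, SE 0.396, adjusted p = 6.42e-08), and Chrna1 112, 252 and 646 TPM against 5.7, 8, 8.08 and 6.79 TPM (log2 difference 5.17, SE 0.381, adjusted p = 1.13e-07). The adult subunit gene Chrne also rose, from 11.3, 13.7, 9.53 and 9.13 TPM to 37.3, 57.5 and 79.9 TPM (log2 difference 2.27, SE 0.18, adjusted p = 1.83e-07). Chrnb1 was the exception. It was 26.5, 51.1 and 90.6 TPM in injured and 30.7, 33, 30.6 and 30 TPM in contralateral muscle, the sides overlapped, and its difference was not called and changed sign with size factors (0.78, SE 0.245, adjusted p = 0.00994, and -0.17).

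Of 19 genes of the neuromuscular junction and of denervation 14 rose and 2 fell, with a median of 2.27, or 10 and 3 with size factors. Without the 3 genes shared with the fusion list, 11 of 16 rose and 2 fell, with a median of 1.61. Ncam1, an adhesion molecule spread over fibres that lack a nerve, rose by 4.87, Runx1, a transcription factor switched on in such fibres, by 4.17, and Musk, the receptor kinase that organizes the synapse, by 2.93. The adult sodium channel Scn4a (-1.07) and the acetylcholine-degrading enzyme Ache (-1.31) fell. Scn4a overlapped between the sides, and was short of the threshold with the rat as a block (-0.88) and without the contralateral muscle of rat 003 (-0.98) or the injured muscle of rat 028 (-0.98) or 031 (-0.90). The same held with the libraries of few symbols kept (-0.95), in the rats with both muscles alone (-0.73) and without the contralateral muscles of rats 003 and 007 (-0.97).

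Most adult fast sarcomere transcripts fell. Of 20 adult fast sarcomere genes 17 were called lower and none higher, with a median of -1.46, and 19 were lower with size factors. Myh4, the fastest myosin heavy chain, was 1423, 4097 and 5892 TPM in injured and 16468, 10854, 19181 and 17967 TPM in contralateral muscle, with no overlap (log2 difference -2.17, SE 0.325, adjusted p = 4e-05). Ckm, muscle creatine kinase, was 4324, 9305 and 11205 TPM against 28393, 27829, 30353 and 28241 TPM (log2 difference -1.84, SE 0.255, adjusted p = 2.05e-05). The alpha-actinin Actn3 (-2.49), the myosin kinase Mylk2 (-2.75), the calcium buffer Pvalb (-2.04), the calcium pump Atp2a1 (-1.82) and skeletal actin Acta1 (-1.22) were lower too. Acta1 was short of the threshold in the rats with both muscles alone (-0.97) and in NoRepair rats alone (-0.99). The myosin genes share long identical stretches, so reads could have been divided among them. Myh1, another fast form, was not called (-0.19, adjusted p = 0.637) but was called lower with size factors (-1.16, adjusted p = 0.0196), while Myh2 (-1.35) and slow Myh7 (-1.56) were called lower with overlapping sides. Neither was called without the contralateral muscle of rat 008 (-1.08 and -1.15), and Myh7 also not without that of rat 007 (-1.47). Both also lost their call in NoRepair rats alone (-0.53 and -0.56) and without the contralateral muscles of rats 003 and 007 (-1.32 and -1.61).

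Of 16 slow sarcomere genes 6 rose and 4 fell, or 2 fell without the contralateral muscle of rat 007 or 008, and the median was 0.58, which changed sign with size factors (-0.38). Of 20 genes of atrophy and autophagy 4 rose and 3 fell, or 1 and 5 with size factors, and the median of 0.46 also changed sign (-0.40). The muscle ubiquitin ligases Fbxo32 (-0.04, adjusted p = 0.938) and Trim63 (0.23, adjusted p = 0.63) were not called, and in both the injured muscles spread to either side of the contralateral ones: Trim63 was 71.5, 165 and 503 TPM in injured and 165, 141.4, 135.6 and 148 TPM in contralateral muscle. Of 15 circadian clock genes 1 rose and 1 fell, or 0 and 6 with size factors, and their median changed sign between scalings as well (0.12 and -0.77).

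Most genes for sugar metabolism fell, and some rose. Of 32 genes of glycolysis and glycogen 21 fell and 5 rose, with a median of -1.43. Pygm, muscle glycogen phosphorylase, was 778, 1743 and 2063 TPM in injured and 6132, 5890, 6860 and 6467 TPM in contralateral muscle (log2 difference -2.06, SE 0.248, adjusted p = 5.95e-06). Pfkm, muscle phosphofructokinase (-1.84), the enolase Eno3 (-1.85), Fbp2, muscle fructose bisphosphatase (-2.86), and the insulin-responsive glucose transporter Slc2a4 (-1.76) fell without overlap. Among those that rose were the general hexokinase Hk1 (2.33), the platelet form of phosphofructokinase Pfkp (2.71) and the general glucose transporter Slc2a1 (2.71), which reached 20.6, 16.3 and 17.2 TPM in the median injured muscle.

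Oxidative genes lay below 0 almost as a whole, though few were called. Of 66 genes of oxidative phosphorylation 64 had a difference under 0, 12 were called lower and 2 higher, and the median was -0.77 against 0.81 for all tested genes. With size factors 64 were called lower and none higher, and without the contralateral muscles of rats 003 and 007 20 were lower. The 2 called higher were non-muscle forms of cytochrome oxidase subunits. Cox6a1 was 363, 478 and 710 TPM in injured and 152, 163, 140 and 116 TPM in contralateral muscle (log2 difference 1.78), whereas the muscle form Cox6a2 was 1168, 1592 and 2320 TPM against 5200, 5622, 3831 and 4168 TPM (log2 difference -1.51). Cox8a (1.75) and muscle Cox8b (-0.92, not called) made a like pair. With size factors Cox8b was called lower (-1.88, adjusted p = 7.54e-06), and neither Cox6a1 nor Cox8a was called with size factors (0.82 and 0.78). Cycs, cytochrome c, fell (-1.39), as did the regulators of mitochondrial genes Ppargc1a (-1.16) and Perm1 (-2.64). Ppargc1a was short of the threshold in the rats with both muscles alone (-0.87) and in NoRepair rats alone (-0.94).

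Of 31 genes of fatty acid oxidation 6 fell and 1 rose, or 23 and 1 with size factors, and 3 fell without the injured muscle of rat 031. Acadm, a dehydrogenase of medium chains, fell by 1.44 on the log2 scale, and Cpt1a, the form of the carnitine transferase of liver and other tissues, rose by 1.96. The genes with the lowest differences that were on no list were Adhfe1, a mitochondrial alcohol dehydrogenase (-3.17), Asb11, an ubiquitin ligase adaptor (-3.08), Aqp4, the water channel of fast fibres (-3.01), Pfkfb1, which sets the level of a glycolytic activator (-2.78), G0s2, an inhibitor of fat breakdown (-2.73), Ky, a muscle protease-like protein (-2.68), Perm1, named above (-2.64), Cacng7, a channel subunit (-2.59), and Acsm5, a fatty acid ligase (-2.59). Aqp4, for example, was 1.56, 4.32 and 9.18 TPM in injured and 37.1, 42.4, 41.1 and 42.1 TPM in contralateral muscle.

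Cell cycle genes were higher almost as a group. Of 38 cell cycle genes 35 rose and 1 fell, with a median of 2.69, and 32 rose with size factors. The list includes the inhibitors Cdkn1a and Cdkn1c, and without them 33 of 36 rose and 1 fell, with a median of 2.54. Cdk1, the mitotic kinase, was 17.1, 30 and 58.9 TPM in injured and 0.53, 0.69, 0.83 and 0.99 TPM in contralateral muscle (log2 difference 4.19, SE 0.281, adjusted p = 6.56e-08). Mki67 (2.86) and Top2a (3.02), both made in dividing cells, rose as well. Tpx2, a spindle protein, was the one that fell (-1.24): contralateral muscle held 37.9, 30.8, 20.3 and 31.6 TPM of it, far more than of Cdk1. In grafted rats alone Tpx2 was not called (-0.93). Of the inhibitors, Cdkn1a, a target of p53 and of myogenic factors, and Cdkn1c, which is made in differentiating myoblasts, rose by 5.21 and 4.18. Cdkn1a was 214, 406 and 694 TPM in injured and 10.2, 16.1, 8.27 and 8.06 TPM in contralateral muscle.

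MicroRNA genes appear as hairpin symbols, so a value is the TPM of the short precursor, corrected for its length, and not the amount of mature microRNA. Depth is unknown, so the number of fragments behind a value cannot be told. Of 147 hairpins tested 53 rose and 3 fell. Both are smaller shares than the 41.1% higher and 3.79% lower of all tested genes. The hairpins below were chosen after their values were seen, for microRNAs known from macrophages, fibroblasts and muscle. Their mature sequences, from the RefSeq table, are given with the seed, bases 2 to 8, in capitals, and the seeds differ from each other.

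rno-miR-21-5p: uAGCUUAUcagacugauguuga
rno-miR-199a-5p: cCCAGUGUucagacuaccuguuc
rno-miR-223-3p: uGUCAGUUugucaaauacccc
rno-miR-133b-3p: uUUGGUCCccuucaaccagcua

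Mir21, found in many injured tissues, was 24.4, 43.1 and 91.3 TPM in injured and 2.76, 3.68, 1.61 and 0 TPM in contralateral muscle (log2 difference 4.20, SE 0.387, adjusted p = 5.8e-07). Mir199a2, a hairpin of fibroblasts, was 31.7, 54.3 and 69.5 TPM against 4.32, 0, 4.91 and 0 TPM (log2 difference 4.49, SE 0.478, adjusted p = 1.98e-06). Mir223, a microRNA of myeloid cells, was 23.7, 60.4 and 93.3 TPM against 17.3, 3.33, 9.82 and 0 TPM (log2 difference 3.40, SE 0.593, adjusted p = 0.000149). Injured muscles lay above contralateral ones in all 3, and in Mir223 by the least. Mir133b, a muscle microRNA, was called higher with overlapping sides (44.7, 168 and 548 TPM against 24.7, 18.5, 46.8 and 22.7 TPM; log2 difference 2.69).

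The difference between the sides was then set against that of rats that did not run, also at 7 DPI (16 injured and 10 contralateral muscles). A test of the interaction of side and running over these 38 muscles called 0 of 11089 genes (0%), with 399 at an unadjusted p under 0.05 and a lowest adjusted p of 0.887. The 399 became 159, 238 or 632 without the contralateral muscle of rat 007, 003 or 008, and 44 with the libraries of few symbols kept. A missed threshold does not show equal responses, so the intervals are given. The 95% interval of the difference between running and non-running rats lay within -1 and 1 for 10505 genes, with a median half-width of 0.32, and for 86 of the genes examined by name, while it reached beyond for the other 50. For Chrng the injury difference was 6.49 in running and 6.89 in non-running rats (95% interval of running minus non-running -1.11 to 0.29). For Myh4 it was -2.17 and -2.08 (-0.82 to 0.64), for Tgfb1 3.58 and 3.57 (-0.45 to 0.48), and for Cd68 5.0 and 5.1 (-0.89 to 0.71).

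For genes with a large spread the intervals leave room for sizeable differences. That of Spp1 ran from -1.18 to 2.12, that of Mmp12 from -0.61 to 2.87 and that of Tnmd from -1.75 to 1.55. Among the genes examined by name 4 had an unadjusted p under 0.05 and none an adjusted one. They were Cd36 (95% interval -0.69 to -0.09), Dcn (-1.21 to -0.02), Cdkn1a (-1.43 to -0.08) and Ostn (-2.58 to -0.01), all with a lower value of the injury difference in running rats. Ostn, the activity-linked hormone, differed by -3.70 in running and -2.40 in non-running rats.

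**Figure D4:**
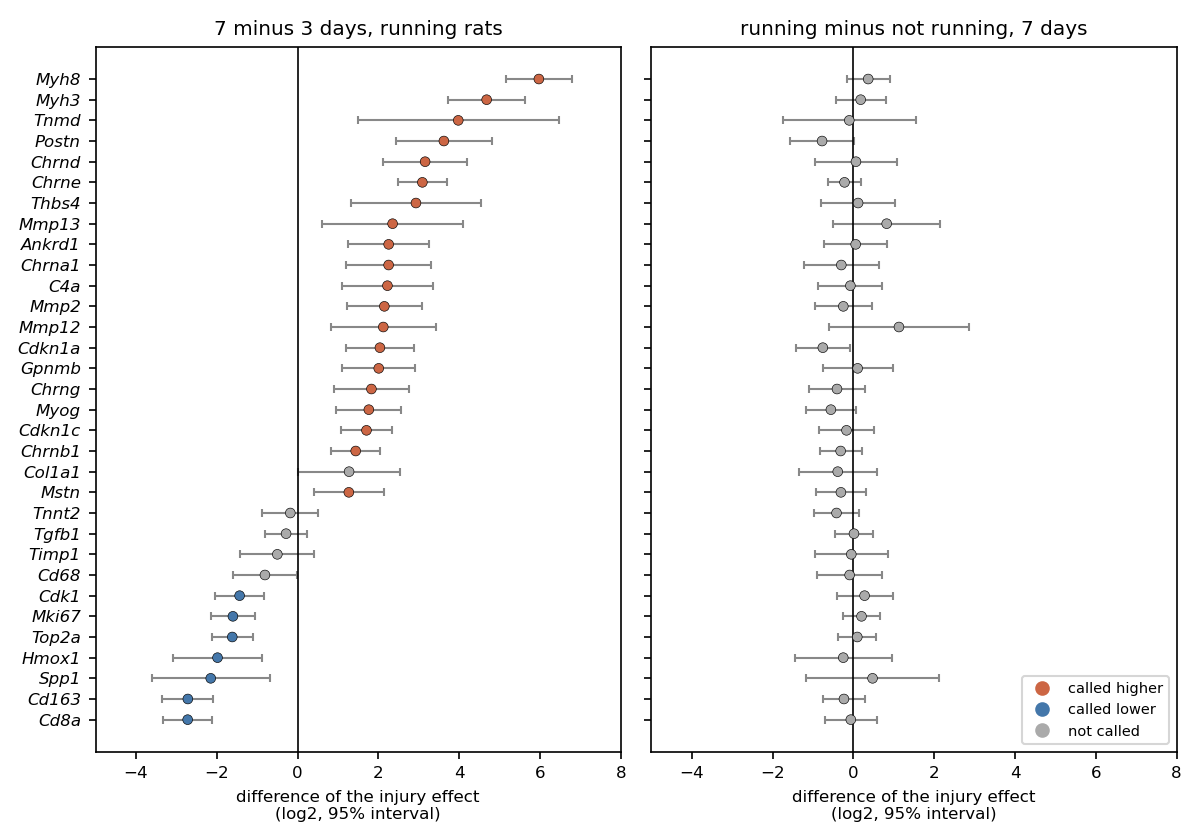
Difference in the injury effect (injured minus contralateral, log2) for 32 genes, with 95% intervals, between 7 and 3 DPI in running rats on the left and between running and non-running rats at 7 DPI on the right, coloured by call. On the left, Myh8 (5.97) and Myh3 (4.68) are highest and Cd8a and Cd163 (-2.72 each) lowest, and on the right no gene was called.

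Between 3 and 7 DPI the injury difference of running rats became smaller for 29 of 38 cell cycle genes and 8 of 17 macrophage markers, and larger for 11 of 20 genes of fusion and the embryonic sarcomere and 12 of 19 genes of the neuromuscular junction, with Chrna1, Chrng and Ncam1 in both counts. The interaction of side and day was tested over 30 muscles, of which 14 injured and 4 contralateral ones were from 3 DPI. Of 11186 genes 510 were called with a higher injury difference at 7 than at 3 DPI (4.56%) and 406 with a lower one (3.63%). The balance between the directions turned with size factors (349 higher and 512 lower), with the libraries of few symbols kept (236 and 386) and without the contralateral muscle of rat 008 (435 and 478). With the rat as a block 578 were higher and 476 lower.

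Cell cycle genes with a lower difference at 7 DPI numbered 29 and those with a higher one 2, the inhibitors Cdkn1a and Cdkn1c. With size factors the counts were 30 and 2. Mki67 differed between the sides by 4.46 at 3 DPI and 2.86 at 7 DPI (difference -1.60, adjusted p = 4.97e-05), and Cdk1 by 5.62 and 4.19. The 8 macrophage markers that were lower, also 8 with size factors, included Cd163, which went from 4.88 to 2.16 (difference -2.72, adjusted p = 4.35e-07). Of the phagocyte and lipid-handling genes 4 were higher and 3 lower, or 1 and 2 with the libraries of few symbols kept: Gpnmb went from 4.87 to 6.88 and Mmp12 from 4.33 to 6.46, while Spp1 went from 10.62 to 8.47 and Cd68 was not called (5.83 and 5.0, adjusted p = 0.115). Cd8a went from 6.40 to 3.68 and Hmox1 from 7.51 to 5.53.

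Matrix genes differed by day in part. Of 9 fibrillar collagens 1 had a higher injury difference at 7 DPI, or 0 with the libraries of few symbols kept, and Col1a1 was not called (3.65 and 4.92, adjusted p = 0.113). Of 22 matricellular and elastic fibre genes 11 were higher and none lower (10 and none with size factors). With the libraries of few symbols kept 8 were higher and 1 lower, and with the rat as a block 11 and 1. Postn went from 2.39 to 6.02 (difference 3.62, adjusted p = 4.51e-05) and Thbs4 from 1.63 to 4.56. Of 25 metalloproteinases and inhibitors in this fit 8 were higher and 1 lower, or 4 higher with the libraries of few symbols kept, among the former Mmp2 (1.99 and 4.14), while Timp1 was not called (6.31 and 5.81). Of 9 tendon genes 5 were higher, and Tnmd went from -0.31 to 3.67 with a wide interval (adjusted p = 0.013).

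No fusion or embryonic sarcomere gene had a lower difference at 7 DPI, and with size factors 11 again had a higher one. Of the 15 that are on neither the junction nor the slow sarcomere list 6 had a higher one, and of the 16 junction genes not on the fusion list 9. Myh8 differed by -0.65 at 3 DPI and by 5.33 at 7 DPI (difference 5.97, adjusted p = 7.78e-11), Myh3 by 1.41 and 6.09 (difference 4.68, adjusted p = 4.24e-08) and Myog by 2.38 and 4.15, whereas Tnnt2 already differed by 6.35 at 3 DPI. Of the neuromuscular junction and denervation genes none was lower, and 11 were higher with size factors but 7 with the libraries of few symbols kept. All 5 receptor subunit genes were among them: Chrnd went from 2.75 to 5.91, Chrne from -0.81 to 2.27 (difference 3.09, adjusted p = 2.64e-08), Chrna1 from 2.92 to 5.17, Chrng from 4.66 to 6.49 and Chrnb1 from -0.66 to 0.78. Of the 20 adult fast sarcomere genes 3 were higher and none lower at 7 DPI, or 7 with the rat as a block and 1 with the libraries of few symbols kept, and the median of the list went from -2.19 to -1.46. Mstn went from -3.51 to -2.24 (adjusted p = 0.0214) and was not called with size factors.

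Graft and no repair were compared through the interaction of side and repair, with 4 injured and 2 contralateral muscles in each arm. Of 11025 genes 1 was called (0.00907%), and 256 had an unadjusted p under 0.05. The 256 became 119 or 455 without the contralateral muscle of rat 004 or 008, and 467 or 664 without the injured muscle of rat 007 or 031. It was 876 with the rat as a block, 447 with size factors and 60 with the libraries of few symbols kept. The gene called was the hairpin Mir3084c, chosen after its values were seen, whose injury difference was higher by 3.49 in grafted rats, with contralateral levels of 1.97 and 3.3 TPM in NoRepair and 0 in both MMG rats, and at most 2.59 TPM in injured muscle. The median standard error of this comparison was 0.27, against 0.13 for the difference between the sides.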

How the data were processed

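RNA of whole tibialis anterior muscle was sequenced by the authors, who pseudo-aligned the reads with Kallisto at default settings to the GenBank-annotated rat genome (build 6.0) and deposited 1 table of TPM per gene symbol for all libraries. TPM keeps no depth, so the depth of a library is unknown. The 16181 complete entries, in alphabetical order up to Tubb3, were used. Symbols after these were not analysed here.

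Libraries were grouped by their labels, those with fewer than 7000 symbols above 1 TPM were dropped, and libraries of 1 muscle would have been averaged, but no muscle kept more than 1. The comparison, its gene lists and the genes named were chosen with earlier results of these data known. Genes with a mean above 1 TPM in at least 1 group were tested on log2(TPM + 1) with limma 3.58.1 in R 4.3.3, with an intensity trend and repair as a covariate, with Benjamini-Hochberg adjustment across the tested genes. Calls needed an adjusted p below 0.05 together with a log2 difference beyond 1. All fold changes are on the log2(TPM + 1) scale, which understates the change of low genes. Interactions of side with running, day and repair were fitted in the same way. The genes named are members of 39 lists (37 of 718 tested members are on more than 1), plus the 12 highest and 12 lowest called genes whose sides did not overlap, leaving out provisional and microRNA symbols. The microRNA hairpins were named after their values were seen.

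The rat number in the labels marks 1 animal, so injured and contralateral muscles of 4 rats are paired. The within-rat correlation was 0.559 by duplicateCorrelation (statmod 1.5.0), and the fit with the rat as a random block is given as an alternative. Other alternatives were a pseudocount of 0.1, no filter, size factors, all libraries kept, each library as a sample, the adjusted p alone, no covariate, 1 model of all groups, subsets of rats and each muscle left out in turn. The code was tested on simulated data. Promoter and mature microRNA sequences came from RefSeq tables on the GRCr8 build. Tables and figures used Python 3.11.15, pandas 2.3.3 and matplotlib 3.10.9. Some items are not reported here.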

Additional observations from a re-analysis of the deposited data

Results flagged for a closer look

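Single muscles stood apart from the others of their group in 12 of 272 groups (4.4%), 6 contralateral and 6 injured, and chance alone flags about 1 in 20. The rule sets the gap to the next muscle against the range of the group, so a small gap can be flagged. On the contralateral side these were Mmp12 in rat 003 (0 TPM, the others at 0.02), Mmp13 in rat 003 (0.3 TPM, the others at 0), Myog (10.43 TPM) and Tnnt2 (4.71 TPM) in rat 008, and Tmem8c (0.31 TPM) and Sln (161.85 TPM) in rat 004. On the injured side rat 031 had the highest Cd74 (1494.8 TPM) and RT1-Da (525.25 TPM) and the lowest Mustn1 (484.4 TPM). Rat 008 had the lowest Tnmd (12.92 TPM) and Myh7 (3.14 TPM), and rat 027 the lowest Cdkn1c (43.33 TPM).

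The injury difference of running rats differed between 7 and 3 DPI by the interaction test for these genes, given as the log2 value at 7 minus that at 3 DPI. It was lower at 7 DPI for Cd163 (-2.72), Cd8a (-2.72), Spp1 (-2.15), Hmox1 (-1.98), Top2a (-1.62), Mki67 (-1.60) and Cdk1 (-1.44). Among inflammatory and matrix genes it was higher for Gpnmb (2.01), Mmp12 (2.12), C4a (2.22), Postn (3.62), Thbs4 (2.93), Tnmd (3.98), Mmp2 (2.15) and Mmp13 (2.35). Among muscle genes it was higher for Myog (1.76), Myh3 (4.68), Myh8 (5.97), Ankrd1 (2.25), Mstn (1.27), Cdkn1a (2.04) and Cdkn1c (1.71), and among receptor subunits for Chrna1 (2.25), Chrnb1 (1.44), Chrnd (3.16), Chrng (1.83) and Chrne (3.09). Of these, Gpnmb (0.70), Mmp12 (1.77), Mmp13 (2.04), Ankrd1 (1.58) and Mstn (1.28) were not called when libraries with few symbols were kept. With a pseudocount of 0.1 TPM Spp1 (-1.87, adjusted p = 0.0665), Mmp13 (2.87, adjusted p = 0.0745) and Mstn (1.29, adjusted p = 0.0514) were not called by limma, nor was Mmp13 without the filter (adjusted p = 0.051) or Mstn with size factors (1.05, adjusted p = 0.0551). Between grafted and non-repaired rats the difference was larger for Mir3084c by 3.49.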

How the results depend on the processing

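Genes called between the sides numbered 3827 to 5775 over all alternatives but 1 (4953 as reported), and by adjusted p alone 9379. Leaving out each muscle in turn gave 4721 to 5102. With the rat as a replicate block the paired fit called 4785 genes. The comparison of 7 with 3 DPI gave 3560 by adjusted p alone, and 622 with all libraries kept against 916 as reported. The interaction with running called 0 genes under each alternative run. That with repair called 5 with all libraries kept and 1 to 2 with a muscle left out.

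Signs turned for genes that were not called. With size factors this held for Myod1 (-0.248), Chrnb1 (-0.165) and Trim63 (-0.734), and with all libraries kept for Fbxo32 (0.033) and Mir3084c (0.001). With the block it held for Myh1 (0.055) and Fbxo32 (0.086). In rats with both muscles it held for Hbb (0.008), Myh1 (0.248), Fbxo32 (0.185) and Mir3084c (0.002), in non-repaired rats for Myh1 (0.265) and Trim63 (-0.081), and in grafted rats for Fbxo32 (0.324) and Mir3084c (1.652). Without the contralateral muscles of rats 003 and 007, chosen after seeing the data, it held for Adipoq (0.177) and Fbxo32 (0.175). With single muscles left out Myh1 ranged from -0.388 to 0.040, Fbxo32 from -0.261 to 0.188 and Mir3084c from -0.529 to 0.444. The cause was not tested. Calls of Dcn, Fmod, Kera, Scx, Pax7, Cox6a1, Cox8a and Pecam1 were lost with size factors, and Cd36, Hbb, Adipoq, Myh1 and Cox8b were then called lower. The contralateral group held 4 muscles, and depth could not be weighed from TPM.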
